A study of Mus musculus with 19 samples.

Results

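Voltage-gated calcium channels were described through 10 of their subunit genes in mouse dorsal root ganglia, where the cell bodies of sensory neurons lie. The members were taken by symbol, and all 10 were found once among the 36682 genes of the deposited table. They were 6 pore-forming α1 genes (Cacna1a, Cacna1b, Cacna1c, Cacna1d, Cacna1e and Cacna1h), 3 α2δ genes (Cacna2d1, Cacna2d2 and Cacna2d3) and the β gene Cacnb4. All 10 were also among the 22778 genes that passed the filter on low counts and were tested. The α1 subunit forms the pore and senses voltage, so that depolarization of a sensory neuron lets calcium in. P/Q-type, N-type and R-type channels drive transmitter release at nerve endings, L-type channels couple activity to gene expression, and T-type channels open near rest and shape firing. The α2δ and β subunits bring channels to the membrane and tune their gating, and α2δ-1 and α2δ-2 bind the pain drugs gabapentin and pregabalin.

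All mice were males homozygous for the MaFIA transgene (macrophage Fas-induced apoptosis), in which the Csf1r promoter drives a drug-inducible Fas protein in macrophages and other cells that use this promoter. Some had undergone DMM (destabilization of the medial meniscus, an operation that leads to osteoarthritis of the knee), and the naive mice were unoperated and of the same age. Each received AP20187, the dimerizer that switches the transgene on, or vehicle by intraperitoneal injection on 5 successive days, in DMM mice 8 weeks after the operation. Ganglia L3 to L5 of the operated side were pooled within a sample for stranded poly(A) RNA sequencing. DMM mice numbered 5 given AP20187 and 5 given vehicle, and naive mice numbered 4 and 5. All 4 groups carried the transgene, and mice without it and sham-operated mice were not analysed here. The labels give each sample a number, by which it is named here, and no litter or batch, so the p-values measure the spread between these samples.

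Libraries held 60984830 to 74691396 counts, so counting error was small: the 10 genes together took 5242 counts in the library with the fewest, DMM AP20187 58, and 74529 in that with the most, DMM vehicle 33. Markers of neurons were present, with 0 of 20 pan-neuronal or 12 nociceptor genes at 0 in a group. Levels are given in CPM, which are counts scaled by TMM-normalized library size. The 20 pan-neuronal genes summed to 2885 to 11088 CPM in the AP20187-treated DMM mice against 8207 to 22065 in their vehicle controls, and to 3669 to 16711 against 12968 to 24223 in naive mice. Granulocyte precursor transcripts moved the other way: the sum of 5 genes (Mpo, Elane, Prtn3, Ctsg and Ms4a3) was 1222 to 2625 CPM with AP20187 and 30.2 to 404 with vehicle in DMM, and 319 to 1690 against 45.6 to 115 in naive mice. Of 7 macrophage markers, 0 were called lower with AP20187 in either state (edgeR), while 1 was called higher in DMM and 2 in naive. Of all tested genes, 12.4% were called lower and 11.3% higher in DMM, and 2.57% lower and 8.61% higher in naive mice, so that the DMM counts of this short list are near the background.

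In the gene models of the deposited table (build GRCm39 per the submitters' processing notes), the presynaptic pore genes were Cacna1a (ENSMUSG00000034656, chromosome 8, 85065268 to 85366875), Cacna1b (ENSMUSG00000004113, chromosome 2, 24493899 to 24653164) and Cacna1e (ENSMUSG00000004110, chromosome 1, 154266477 to 154759770). The L-type genes were Cacna1c (ENSMUSG00000051331, chromosome 6, 118564201 to 119173370) and Cacna1d (ENSMUSG00000015968, chromosome 14, 29761896 to 30213412), and the T-type gene was Cacna1h (ENSMUSG00000024112, chromosome 17, 25593259 to 25652757). The α2δ genes were Cacna2d1 (ENSMUSG00000040118, chromosome 5, 16139689 to 16579509), Cacna2d2 (ENSMUSG00000010066, chromosome 9, 107276811 to 107406542) and Cacna2d3 (ENSMUSG00000021991, chromosome 14, 28626900 to 29443821), and the β gene was Cacnb4 (ENSMUSG00000017412, chromosome 2, 52318332 to 52566594).

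Start-site sequence is shown for 3 members whose levels followed each other across libraries (Cacna1b, Cacna2d1 and Cacna2d3) and for Cacna1d, which followed them least closely but for Cacna1e. Each is the 250 bases before an annotated start (RefSeq, build GRCm38.p6), read in the direction of the gene, with GC boxes in capitals (GGGCGG, or CCGCCC where the motif is on the other strand). They lie at chr2:24763153-24763402 on the minus strand (Cacna1b), chr5:15934441-15934690 on the plus strand (Cacna2d1), chr14:29721865-29722114 on the minus strand (Cacna2d3) and chr14:30353487-30353736 on the minus strand (Cacna1d, the more downstream of its starts listed).
Cacna1b: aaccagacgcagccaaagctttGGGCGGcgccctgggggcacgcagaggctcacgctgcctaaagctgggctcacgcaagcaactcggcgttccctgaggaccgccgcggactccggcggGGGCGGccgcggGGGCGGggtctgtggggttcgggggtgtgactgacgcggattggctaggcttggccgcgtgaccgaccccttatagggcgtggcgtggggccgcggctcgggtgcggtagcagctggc
Cacna2d1: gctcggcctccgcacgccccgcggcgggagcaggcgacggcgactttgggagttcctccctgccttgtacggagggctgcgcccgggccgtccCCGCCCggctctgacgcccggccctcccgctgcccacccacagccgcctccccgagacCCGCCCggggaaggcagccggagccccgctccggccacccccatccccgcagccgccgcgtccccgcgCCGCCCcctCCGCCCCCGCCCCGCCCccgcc
Cacna2d3: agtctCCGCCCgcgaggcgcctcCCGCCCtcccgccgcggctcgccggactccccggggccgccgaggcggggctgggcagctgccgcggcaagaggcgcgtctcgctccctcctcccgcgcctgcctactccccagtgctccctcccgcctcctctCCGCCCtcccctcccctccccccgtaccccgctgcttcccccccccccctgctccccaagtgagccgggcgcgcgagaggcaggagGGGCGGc
Cacna1d: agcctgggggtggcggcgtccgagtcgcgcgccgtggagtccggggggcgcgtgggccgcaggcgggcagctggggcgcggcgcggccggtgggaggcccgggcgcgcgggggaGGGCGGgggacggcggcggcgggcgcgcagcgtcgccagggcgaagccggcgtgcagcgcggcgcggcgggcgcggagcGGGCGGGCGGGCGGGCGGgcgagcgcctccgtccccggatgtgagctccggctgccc
The windows held 3, 6, 4 and 5 GC boxes in this order, overlapping matches counted, and were 72.0%, 82.4%, 80.0% and 86.4% G and C. The upstream start of Cacna1d, which is not printed, held 0 GC boxes and was 39.6% G and C. In all, 8 members matched the table (all but Cacna1a and Cacna1h) with 13 starts. A GC box was in 7 of these 13 windows, against 32.7% of 32851 promoter windows of the same length, and the 7 belonged to 7 different members (all but Cacna1e). The cAMP response element TGACGTCA was in 0 of the 13 windows and in 1.55% of all, and TATAAA was in 1 (the upstream start of Cacna1d) and in 12.4% of all; both strands were searched. A match is a description of these letters, not a binding site.

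Compared per length, in the deposited FPKM (fragments scaled to transcript length and library size), the α2δ-1 gene was the highest of the 10 and the L-type Cacna1d the lowest. The mean over the 4 group means was 14.3 FPKM for Cacna2d1, 11.3 for Cacnb4, 7.34 for Cacna1b, 4.01 for Cacna2d3 and 3.50 for Cacna1a. It was 2.95 for Cacna1h, 2.67 for Cacna2d2, 1.85 for Cacna1c, 0.615 for Cacna1e and 0.530 for Cacna1d. Neighbours in this order kept it in most libraries at the top: Cacna2d1 exceeded Cacnb4 in 18 of 19, Cacnb4 exceeded Cacna1b in 19, and Cacna1b exceeded Cacna2d3 in 17. Cacna2d3 and Cacna1a (12 of 19), Cacna1h and Cacna2d2 (11) and Cacna1e and Cacna1d (11) did not separate beyond the spread of libraries. With counts per kilobase of annotated exon in place of FPKM, only Cacna1e and Cacna1d changed places. In naive mice with vehicle, Cacna2d1 stood at 20.5 ± 3.56 FPKM (SD, n = 5), Cacnb4 at 17.1 ± 1.98 and Cacna1b at 12.2 ± 3.69, against 0.849 ± 0.557 for Cacna1e and 0.649 ± 0.125 for Cacna1d.

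The question of the AP20187 comparison in DMM mice is what the drug did to the ganglion after joint injury. Most calcium channel genes had lower means with AP20187, but 0 of the 10 passed the threshold (edgeR's quasi-likelihood test with Benjamini-Hochberg adjustment over all tested genes, adjusted p under 0.05), where 23.8% of all genes did and 12.4% did so with a lower level. At an unadjusted p under 0.05 there were 7 of the 10, against 37.3% of all genes, by the same test. Adjusted p is edgeR's from here on unless another tool is named. All 10 log2 fold changes were below 0, from -1.32 to -0.03 with a median of -1.14, while the median of all tested genes was -0.10. Adjusted p ran from 0.0575 to 0.955. With libraries scaled to the pan-neuronal list 8 were above 0, but that moved the median of all genes to 1.28 and left 9 members below it. With the mean log2 CPM of the pan-neuronal list as a covariate, 1 member was below 0. With that of the granulocyte precursor list, whose ranges do not overlap between the treatments, 0 were. The call depended on the tool: DESeq2 called 5 members lower (Cacna1a, Cacna1c, Cacna1h, Cacna2d3 and Cacnb4), where 3653 of 22752 genes were called lower. Limma voom with sample weights called 8 lower (all but Cacna1d and Cacna1e), where 5696 of 22778 genes were. In either direction these tools called 30.5% and 46.9% of all genes. The call also depended on DMM vehicle 64, without which edgeR called 8 members lower, where 4173 of 22604 genes were (34% in either direction). Without AP20187 61 or naive AP20187 3, 3 members were called lower, where 3630 of 22669 and 3259 of 23440 genes were. Without DMM vehicle 63 or naive AP20187 5 it was 1 member, where 2449 of 22669 and 2845 of 23515 genes were, near that share. In bulk tissue, a change in cell make-up and a change in RNA per neuron cannot be told apart. The pan-neuronal list moved with these genes, with 14 of its 20 members called lower and a median log2 fold change of -1.37. Also called lower were 8 of 12 nociceptor, 3 of 7 Schwann cell, 3 of 6 erythroid and 5 of 6 early B cell genes. Called higher were 5 of 5 granulocyte precursor and 5 of 6 neutrophil genes. The part of each cell type was not tested.

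**Figure D1:**
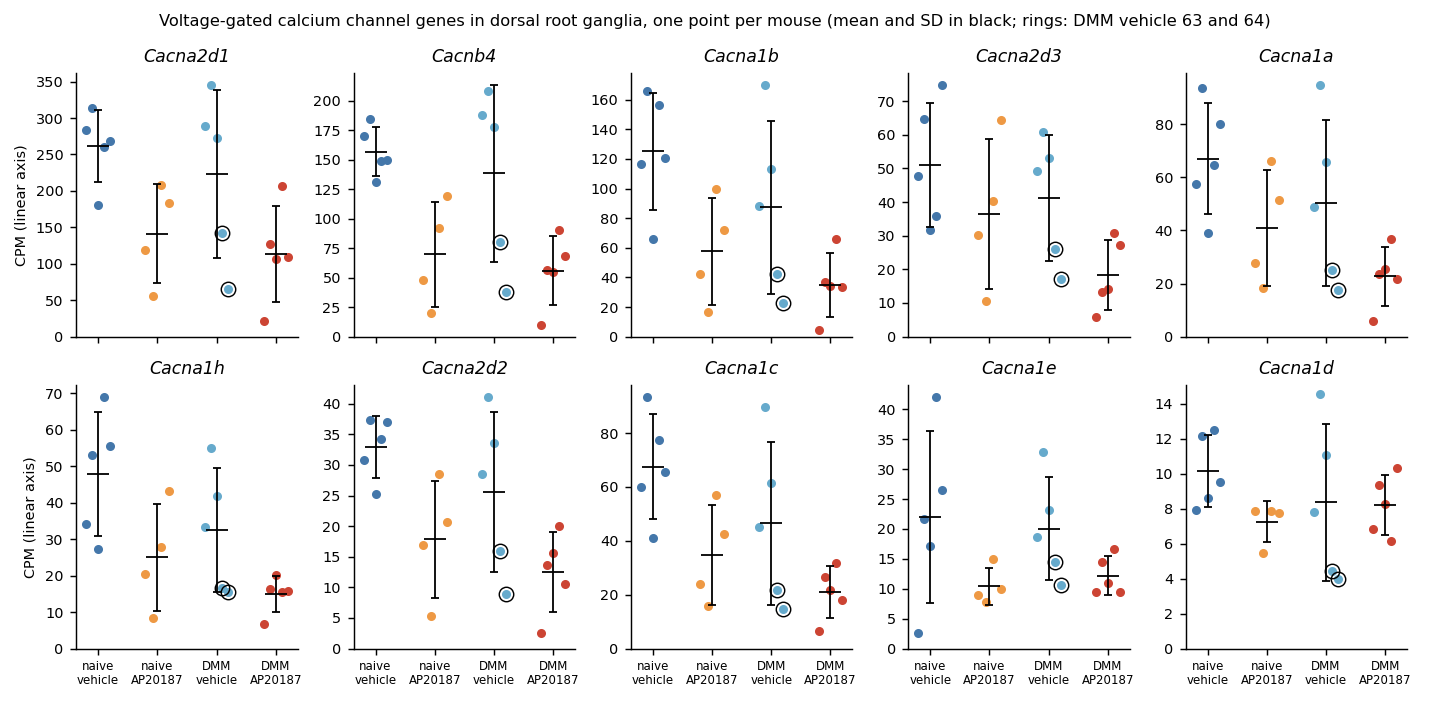
Level of each gene in CPM (linear vertical axis from 0) by group, 1 point per mouse, with the mean and SD in black and rings around DMM vehicle 63 and 64. Cacna2d1 lay at 21.1 to 206 CPM in AP20187-treated DMM mice and at 181 to 314 in vehicle-treated naive mice, and the ringed mice lie below the other 3 DMM vehicle mice in all 10 panels.

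Among the pore-forming genes of presynaptic channels, Cacna1b encodes the N-type channel, the target of the analgesic ziconotide. In DMM it was at 4.55, 36.8, 34.1, 65.9 and 33.8 CPM in AP20187 mice 58, 59, 60, 61 and 62, and at 88.2, 169.6, 113, 42.4 and 22.5 CPM in vehicle mice 32, 33, 34, 63 and 64. The high vehicle values were those of 32, 33 and 34, mice 63 and 64 lay within the AP20187 range, and AP20187 58 was far below every other library. Its log2 fold change was -1.32 ± 0.58 (SE, adjusted p = 0.106). Cacna1a, the P/Q-type pore, was at 6.05, 23.6, 25.5, 36.8 and 21.7 CPM with AP20187 and 48.9, 94.8, 65.7, 25.0 and 17.5 CPM with vehicle, in the same order of mice, with a log2 change between the means of -1.15 ± 0.47 (SE, adjusted p = 0.0800). The same vehicle mice were high and the same AP20187 mouse lowest. The R-type gene Cacna1e was at 9.49, 14.5, 10.97, 16.6 and 9.46 CPM with AP20187 and 18.7, 32.9, 23.2, 14.5 and 10.7 with vehicle, and its log2 fold change was -0.71 ± 0.46 (SE, adjusted p = 0.276). Its groups overlapped only through vehicle 63 and 64, and without vehicle 33 the value was -0.46.

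Cacna1c and Cacna1d both encode L-type pores, yet their values differed. Cacna1c was at 6.64, 26.7, 21.6, 31.9 and 17.9 CPM in the 5 AP20187 mice and 45.1, 89.5, 61.4, 21.8 and 14.8 CPM in the 5 vehicle mice of DMM, and its log2 fold change was -1.15 ± 0.46 (SE, adjusted p = 0.0762). Cacna1d was at 6.83, 9.37, 8.27, 6.18 and 10.3 CPM and 7.80, 14.5, 11.1, 4.46 and 3.99 CPM, with a log2 change between the means of -0.03 ± 0.29 (SE, adjusted p = 0.955), from -0.21 without vehicle 64 to 0.26 without vehicle 33. The Cacna1d vehicle mice lay on both sides of the AP20187 mice, 33 and 34 above and 63 and 64 below, so that all 5 AP20187 values fell inside the vehicle range. Cacna1h encodes the Cav3.2 T-type channel of sensory neurons. It was at 6.62, 16.3, 20.1, 15.6 and 15.8 CPM with AP20187 and 33.4, 55.1, 42.0, 16.7 and 15.5 CPM with vehicle, and had the smallest p of the 10, with a log2 change between the means of -1.13 ± 0.42 (SE, adjusted p = 0.0575). Of the AP20187 mice, 58 was low and the other 4 lay close together, near vehicle 63 and 64.

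The α2δ genes, whose products raise the number of channels at the membrane, were lower in mean as well. Cacna2d1, which is known to rise in ganglia after nerve injury and is bound by gabapentinoids, was at 21.1, 127, 106, 206 and 109.9 CPM with AP20187 and 289, 345, 272, 142 and 65.8 CPM with vehicle in DMM, with a log2 change between the means of -0.97 ± 0.48 (SE, adjusted p = 0.148). AP20187 61 exceeded vehicle 63 and 64, and all vehicle values but those of 63 and 64 exceeded all AP20187 values. Cacna2d2 was at 2.55 to 20.1 CPM against 8.87 to 41.1 CPM, with a log2 change between the means of -1.04 ± 0.47 (SE, adjusted p = 0.114). Cacna2d3, linked to heat pain in flies and mice, was at 5.83, 13.2, 14.1, 30.7 and 27.2 CPM against 49.2, 60.9, 53.3, 25.9 and 17.2 CPM, with a log2 change between the means of -1.18 ± 0.47 (SE, adjusted p = 0.0738). Here AP20187 61 and 62 lay above vehicle 63 and 64, and AP20187 58, 59 and 60 lay below all vehicle mice. The β gene Cacnb4, which encodes a cytoplasmic subunit that escorts the pore to the membrane, was at 9.77, 56.5, 54.5, 90.5 and 68.1 CPM against 188, 208, 177, 80.2 and 37.7 CPM, with a log2 change between the means of -1.31 ± 0.52 (SE, adjusted p = 0.0715). Again the only overlap was with vehicle 63 and 64. No member's DMM groups were fully apart (0 of 10), against 12.9% of all genes, 4.18% with AP20187 lower.

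**Figure D2:**
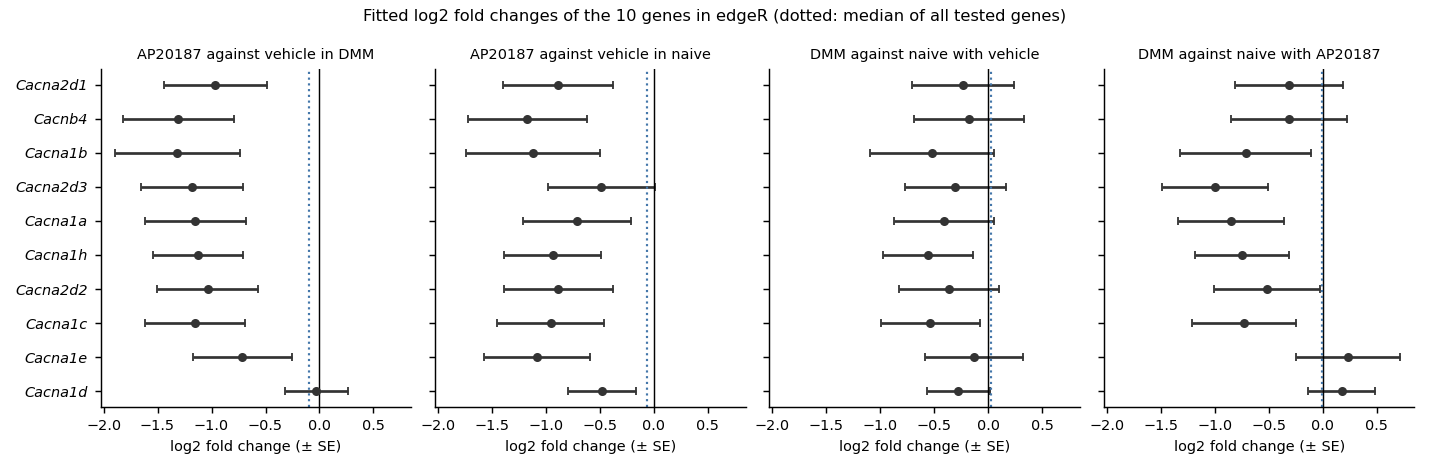
Log2 fold change (horizontal axis, ± SE, edgeR) of the 10 genes in 4 comparisons under TMM scaling, with a dotted line at the median of all tested genes. All 10 points lie below 0 in the first 3 panels and 8 of 10 in DMM against naive with AP20187, and no point passed the threshold.

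The DMM vehicle mice fell into separate levels by their number series, which the labels do not explain. In all 10 genes, mice 63 and 64 both lay below mice 32, 33 and 34: the means were 32.4 and 124 CPM for Cacna1b, 103.8 and 302 for Cacna2d1, 58.9 and 191 for Cacnb4, and 4.22 and 11.1 for Cacna1d. The same split was not counted over all genes. The members followed each other across libraries (median pairwise r of 0.910), so these are not 10 separate observations. The numbers 63 and 64 follow on from those of the AP20187 mice (58 to 62), so number series and treatment cannot be fully told apart. The comparison with each series was chosen with this difference known from earlier results, so the values below restate it and are no independent support. Against 32, 33 and 34 alone, 8 of 10 members were called lower (all but Cacna1d and Cacna1e), with log2 fold changes from -1.82 to -0.44. In that setting 36.3% of all genes were called, and 4366 of 23283 were called lower. Against 63 and 64 alone, log2 fold changes ran from -0.23 to 0.98, 4 were below 0, and the only member called was Cacna1d, higher at 0.98 (adjusted p = 0.0444), where 4.73% of all genes were called. The same mice moved with the cell-type lists: the pan-neuronal score (mean log2 CPM of the 20 genes) was 8.98 in vehicle 63 and 7.90 in vehicle 64 and 9.24 to 9.51 in the other 3, and the granulocyte precursor score was 4.48 and 5.88 against 2.12 to 3.97. Their part in the result was not tested.

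**Figure D3:**
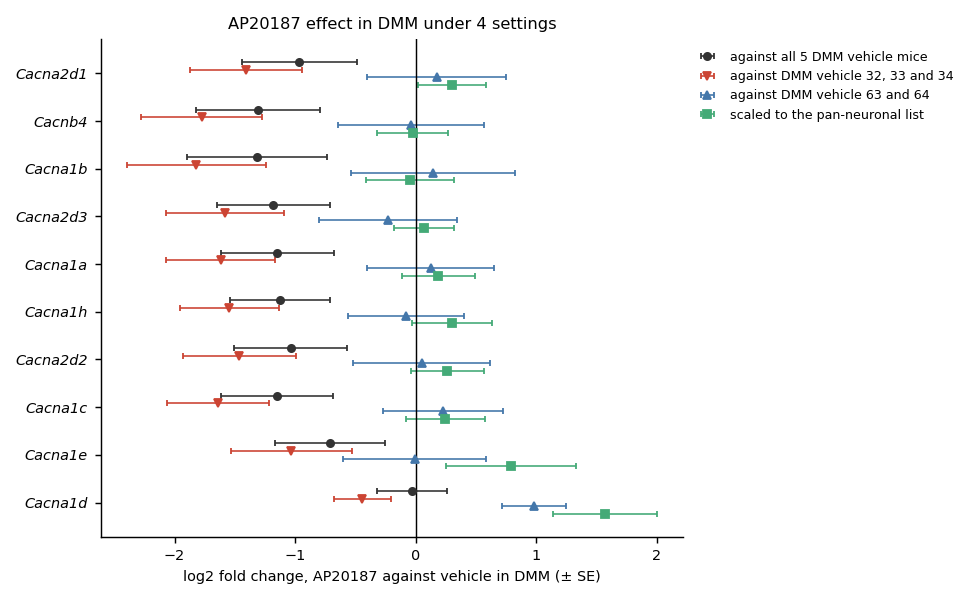
Log2 fold change of AP20187 against vehicle in DMM (horizontal axis, ± SE) under 4 settings: all 5 vehicle mice, vehicle 32, 33 and 34, vehicle 63 and 64, and libraries scaled to equal pan-neuronal level. Against 32, 33 and 34 all 10 points lie between -1.82 and -0.44, and under the last 2 settings most lie near 0, with Cacna1d at 0.98 and 1.57.

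Across the 19 libraries, 8 of the genes followed the pan-neuronal score closely and the lowest libraries were shared. As a description, Pearson's r with the score was 0.967 for Cacna2d3, 0.954 for Cacnb4, 0.940 for Cacna2d1, 0.936 for Cacna2d2, 0.930 for Cacna1b, 0.914 for Cacna1a, 0.890 for Cacna1c and 0.881 for Cacna1h. It was 0.432 for Cacna1d and 0.378 for Cacna1e. These points share each library's depth and cell make-up. DMM AP20187 58, with the lowest score (6.35), was the lowest of all 19 libraries for 8 of 10 members, and naive AP20187 3, with the next lowest (6.93), was among the 3 lowest for all 10. From lowest to highest library, Cacna1b spanned 37.3-fold, Cacnb4 21.3-fold and Cacna2d1 16.4-fold, and Cacna1d 3.65-fold. Cacna1e spanned 16.7-fold only through naive vehicle 1, at 2.52 CPM where the other 4 of its group were at 17.2 to 42.1.

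**Figure D4:**
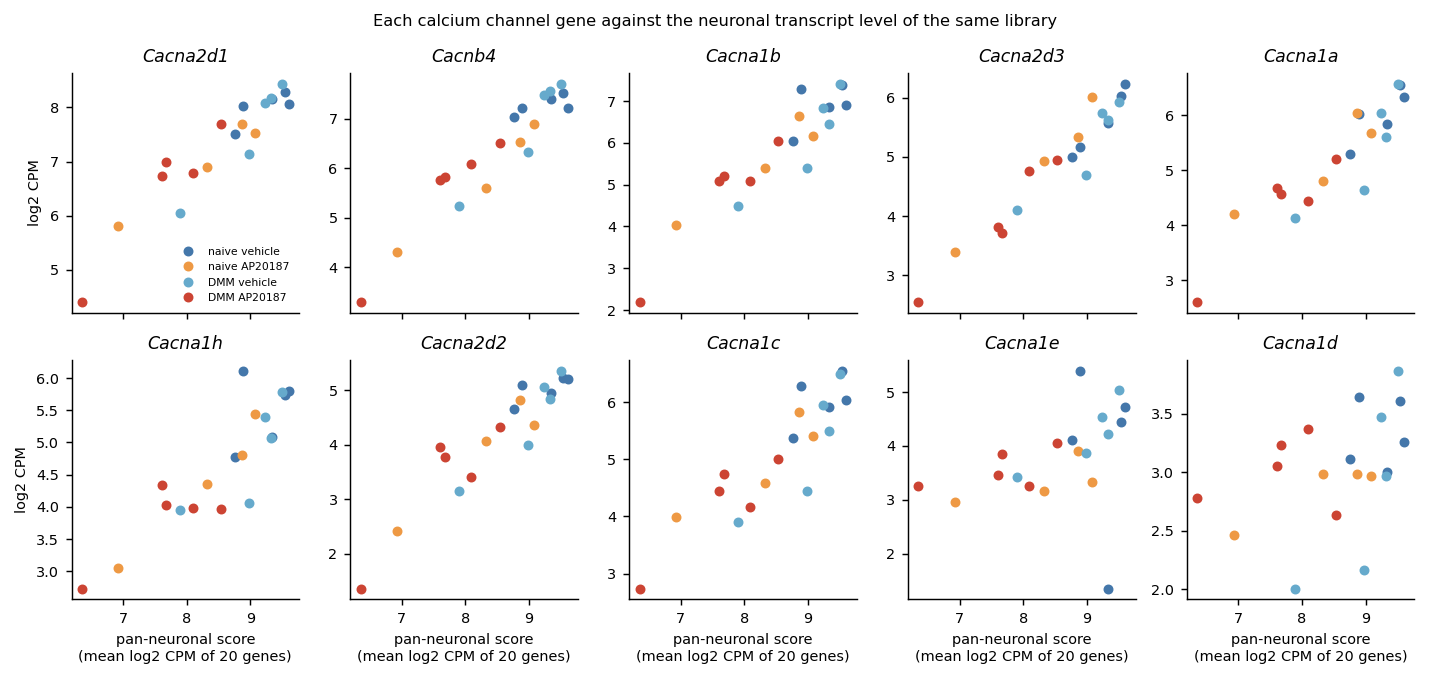
Log2 CPM of each gene (vertical axis) against the pan-neuronal score of the same library (horizontal axis, mean log2 CPM of 20 neuronal genes), 1 point per mouse, coloured by group. Cacna2d3 (r = 0.967) and Cacnb4 (r = 0.954) lie along a line, while Cacna1d (r = 0.432) and Cacna1e (r = 0.378) scatter.

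Set against the neuronal level of the same library, Cacna1d was higher in most AP20187-treated DMM mice. The log2 CPM of Cacna1d minus the pan-neuronal score was -3.57, -4.44, -4.55, -5.90 and -4.72 in AP20187 mice 58 to 62, and -6.36, -5.64, -5.77, -6.81 and -5.89 in vehicle mice 32, 33, 34, 63 and 64. Of the AP20187 mice, 4 lay above every vehicle mouse, and 61 lay inside the vehicle range. Cacna1e moved in part the same way, at -3.10, -3.81, -4.14, -4.48 and -4.85 against -5.10, -4.46, -4.70, -5.12 and -4.48. Its AP20187 mice 58, 59 and 60 lay above every vehicle mouse, and 61 and 62 inside the vehicle range. With libraries scaled to equal pan-neuronal level, Cacna1d was the only member called, with a log2 fold change of 1.57 (edgeR, adjusted p = 0.0184). Under that scaling the median of all genes was 1.28 and 36.1% of genes were called, 8159 higher and 70 lower, against 2582 higher and 2828 lower without it. Cacna1d lay above that median, and the other 9 members lay below it, at -0.05 to 0.79. With the score as a covariate instead, Cacna1d was at 0.49 (adjusted p = 0.471), 0 members were called, and 5.81% of all genes were.

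Cacna1d overlaps Dcp1a, an mRNA decapping factor gene, and Chdh, choline dehydrogenase, on the opposite strand. Dcp1a was at 21.3 to 31.8 CPM with AP20187 and 10.9 to 19.7 with vehicle in DMM (a difference of 0.70 ± 0.18 SE in log2, adjusted p = 0.00980), and Chdh at 11.5 to 24.8 and 7.10 to 14.7 (0.80 ± 0.26 SE, adjusted p = 0.0319). Both rose. The libraries were stranded, and whether the counting used the strand is not given in the sources used here, so reads of these genes may not be fully separate. Of the 10 members, 9 overlap another gene in the files, and Cacna1e does not.

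The share of the main pore genes among the 6 α1 members varied less than the summed level of these 6. The 6 α1 genes summed to 2.84 to 13.3 FPKM in AP20187-treated and 7.01 to 35.6 in vehicle-treated DMM mice, and to 4.45 to 19.1 and 15.8 to 33.8 in naive mice. This sum leaves out other α1 genes, such as Cacna1i (mean 1.47 FPKM in naive vehicle mice) and Cacna1s (1.75 in naive AP20187 mice). Within the sum, Cacna1b took 30.85% to 50.5% in every library but DMM AP20187 58, where it took 16.6%, and Cacna1a took 15.4% to 27.6%. In DMM, Cacna1d took 2.60% to 3.93% under vehicle and 2.93% to 16.3% under AP20187, where mouse 58 was highest and mouse 61 lay within the vehicle range. Among the α2δ genes, Cacna2d1 took 59.7% to 76.0% of the summed FPKM in all 19 libraries, Cacna2d3 11.2% to 29.8% and Cacna2d2 9.99% to 16.1%. FPKM carry no depth of their own, and shares in DMM AP20187 58 rest on the fewest counts.

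**Figure D5:**
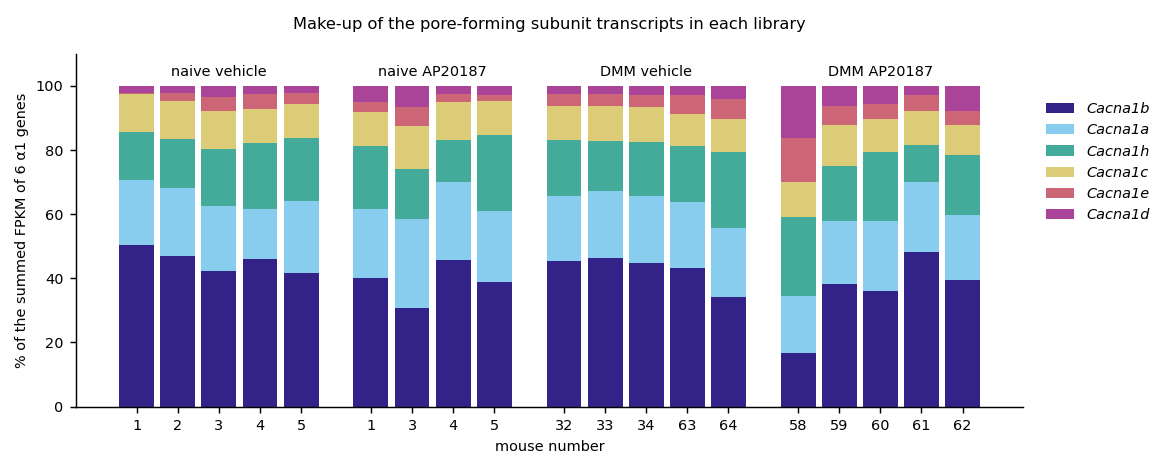
Share of each α1 gene (vertical axis, percent of the summed FPKM of the 6 genes) in each library, by mouse number and group. Cacna1b is the largest share in 18 of 19 libraries, and DMM AP20187 58 departs from the rest, with 16.3% Cacna1d, 16.6% Cacna1b and 24.6% Cacna1h.

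In naive mice the AP20187 comparison asks the same question without joint injury, and the members had lower means here too. The threshold was passed by 0 of 10 (edgeR), against 11.2% of all genes called (8.61% higher and 2.57% lower), and 3 of 10 had an unadjusted p under 0.05 (28.8% of all genes). The balance of all calls, 1962 higher and 586 lower, differed with the scaling and the unit: it was 1550 and 915 with library sizes alone, 2362 and 54 with the pan-neuronal scaling, and 1625 and 2522 on log2(FPKM + 1). DESeq2 and limma voom also called 0, where they called 19.1% and 19.9% of all genes. All 10 log2 fold changes were below 0 (3 were above 0 with the pan-neuronal scaling, where the median of all genes was 1.05), from -1.17 to -0.48 with a median of -0.91, beside -0.07 for all genes, and adjusted p ran from 0.156 to 0.528. Cacnb4 was at 48.1, 19.7, 91.8 and 119 CPM in AP20187 mice 1, 3, 4 and 5 and at 169.8, 185, 131, 149 and 149.6 CPM in vehicle mice 1 to 5. Every AP20187 mouse lay below every vehicle mouse, and the log2 fold change was -1.17 ± 0.55 (SE, adjusted p = 0.170). Cacna1d, at 7.90, 5.49, 7.90 and 7.77 CPM against 7.96, 12.2, 8.62, 12.5 and 9.54 CPM, was the only other member whose groups did not overlap, by a narrow margin, and its log2 fold change was -0.48 ± 0.31 (SE, adjusted p = 0.310). Groups were apart in 15.5% of all genes, and in 6.15% with AP20187 lower, the direction of both these members.

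The other members overlapped between the naive groups, in most cases through AP20187 4 and 5. Cacna1b was at 42.1, 16.5, 99.5 and 71.9 CPM with AP20187 and 117, 166, 66.2, 156 and 120.4 CPM with vehicle (a log2 difference of -1.12 ± 0.62 SE, adjusted p = 0.237). Cacna2d1 was at 119, 55.6, 208 and 184 CPM and 284, 314, 181, 260.4 and 269 CPM (-0.89 ± 0.51 SE, adjusted p = 0.255). In both genes AP20187 1 and 3 lay below all vehicle mice and 4 and 5 inside the vehicle range. Cacna1e was at 8.94, 7.70, 14.9 and 9.98 CPM and 2.52, 21.7, 17.2, 42.1 and 26.5 CPM, and its log2 fold change was -1.08 ± 0.49 (SE, adjusted p = 0.156). Vehicle 1 was the lowest of all 19 libraries for Cacna1e, and without it Cacna1e was called lower (-1.37, adjusted p = 0.0255), where 6.03% of all genes were called. Without vehicle 4 its log2 fold change was -0.71, and limma voom turned the direction, at 0.18. Cacna1a, Cacna1c, Cacna1h, Cacna2d2 and Cacna2d3 had log2 fold changes of -0.71, -0.96, -0.94, -0.89 and -0.49, with adjusted p of 0.347, 0.207, 0.173, 0.247 and 0.528. The value of Cacna2d3 was -0.20 without AP20187 3, -0.30 without vehicle 5 and -0.95 without AP20187 5. In the naive groups 0 of 20 pan-neuronal genes were called, with a median log2 fold change of -0.75. Markers of central nervous system cells were called lower in 3 of 7 neuronal genes (median -1.40) and 2 of 6 glial genes (median -0.82), beside 2.57% of all genes. Their summed levels overlapped, at 55.2 to 274 CPM with AP20187 and 203 to 408 with vehicle for the neuronal and 34.4 to 81.1 and 61.5 to 67.5 for the glial list. Camk2a, 1 of the 7 neuronal genes, was at 39.3 to 148 and 134 to 252 CPM and was not called (adjusted p = 0.184). The neuronal sum therefore rests in large part on 1 gene. The part of these markers in the values of the members was not tested.

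Skeletal muscle transcripts differed between the naive groups: the sum of 7 genes (Acta1, Ckm, Myh4, Myl1, Tnnt3, Tnni2 and Mylpf) was 1683 to 2543 CPM with AP20187 and 13.3 to 462 with vehicle. In DMM it was 16.6 to 136 with AP20187 and 15.3 to 2067 with vehicle. Cacna1s, the skeletal muscle L-type pore, is no member. It was called higher with AP20187 in naive mice (log2 fold change 3.20, adjusted p = 0.0351) and lower in DMM (-2.88, adjusted p = 0.0315). The part of muscle in the values of Cacna1s and of the members was not tested.

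Surgery was compared in vehicle-treated mice, which asks what 8 weeks of joint injury did to the ganglion. With edgeR 0 of 10 members and 0% of all genes were called, and 0 members had an unadjusted p under 0.05, against 1.66% of all genes. DESeq2 and limma voom also called 0 members, and 0% and 0.00439% of all genes. All 10 log2 fold changes were below 0, with a median of -0.33 and an adjusted p of 1 each. The median was -0.59 without DMM vehicle 33, -0.20 without 63 and -0.13 without 64. Against the DMM vehicle mice 32, 33 and 34 alone the median was 0.079, and against 63 and 64 alone all 10 were below 0 and Cacna1d was called lower (-1.26, adjusted p = 0.0485), where 2.21% of all genes were called. With AP20187, the median log2 fold change of DMM against naive over the members was -0.61 (0.12 with the pan-neuronal scaling, where that of all genes was 0.58), with 8 below 0 and Cacna1d and Cacna1e above. It was -0.34 without DMM AP20187 58, -0.25 without naive AP20187 4, -0.39 without naive AP20187 5 and -0.90 without naive AP20187 3. By edgeR 0 of 10 were called (adjusted p 0.313 to 0.847), with 0 at an unadjusted p under 0.05, beside 0.702% and 16.7% of all genes. DESeq2 called 0 (4.87% of all genes) and limma voom 1 (Cacna2d3, -1.32, adjusted p = 0.0428, 10.8% of all genes). Whether the AP20187 effect differed between DMM and naive mice was tested as an interaction, and 0 of 10 members were called by edgeR, DESeq2 or limma voom, beside 0.114%, 0.985% and 0.233% of all genes. Its median over the members was -0.17 (0.42 with the pan-neuronal scaling, where that of all genes moved from -0.08 to 0.19), adjusted p ran from 0.909 to 0.993 with edgeR, and 0 members had an unadjusted p under 0.05, against 7.67% of all genes. These comparisons share the groups they are built from.

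The members also followed each other. Over the 45 pairs, Pearson's r of log2 CPM across the 19 libraries ran from 0.349 to 0.986 with a median of 0.910, and the closest pairs were Cacna1a with Cacna1c (0.986) and Cacna1b with Cacna2d1 and with Cacna2d2 (0.984 each). The median over a gene's 9 pairs was 0.961 for Cacna1b and 0.574 for Cacna1d and 0.456 for Cacna1e, the lowest 2. Of the genes outside the set, the mean of the members was most like Plekha6 (r = 0.988), the mechanosensitive channel gene Piezo2 (0.987), the potassium channel gene Kcnma1 (0.982), Ksr2 (0.982) and Apc2 (0.982). The closest single genes were Scn9a, the sodium channel Nav1.7, for Cacna2d1 (0.994), Ano3 for Cacnb4 (0.994), Insyn1 for Cacna2d3 (0.996), Plekha6 for Cacna1b (0.993), Nav1 for Cacna1c (0.992), Piezo2 for Cacna1a (0.990) and Kcnh6 for Cacna2d2 (0.984). Cacna1h was most like Zfp316 (0.962), Cacna1d like Rad54l2 (0.943) and Cacna1e like Sh2d4b (0.799).

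Among 16 other channel subunit genes, 8 were called lower and 0 higher with AP20187 in DMM (edgeR), beside 12.4% and 11.3% of all genes. The median log2 fold change of the list was -1.09, and that of all genes -0.10. The T-type gene Cacna1i averaged 2.78 ± 1.33 CPM under AP20187 and 9.11 ± 5.89 under vehicle (SD, n = 5 each), a log2 difference of -1.71 (adjusted p = 0.0203). Cacng5, a γ subunit gene, was at -1.70 (adjusted p = 0.0168), and the β genes Cacnb1 and Cacnb3 were at -1.23 (adjusted p = 0.0213) and -1.39 (adjusted p = 0.0252). Per length Cacnb3, at 5.49 to 67.3 FPKM over the libraries, stood above every member in the mean over group means (31.7 FPKM). In naive mice 1 of the 16 was called higher (Cacna1s) and 1 lower (Cacng3, -1.28, adjusted p = 0.0220), beside 8.61% and 2.57% of all genes. Against DMM vehicle 63 and 64 alone 0 of the 16 were called lower in DMM, where 493 of 24459 genes were. Scaled to the pan-neuronal list 0 were, where 70 of 22778 genes were. Calls of lower level were few over all genes under both settings, and the reason for these counts was not tested. Leaving out 1 library at a time gave 1 to 10 lower: 1 without AP20187 58, 2 without vehicle 33, 3 without vehicle 32, and 4 without AP20187 59, 60 or 62 or vehicle 34. Calls over all genes dropped too, from 2828 lower to 1346, 1530 and 1461 without AP20187 58, vehicle 33 and vehicle 32, and to between 1629 and 1988 without the other 4. The pan-neuronal count went the same way, to 5 without AP20187 58, 6 without AP20187 59 or vehicle 33, 7 without AP20187 60 or vehicle 32, and 8 without vehicle 34.

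Of 27 genes for regulators of the channels, 11 were called lower and 0 higher in DMM with AP20187, with a median of -0.90. The counts of this and the next 3 lists stand beside 12.4% of all genes called lower and 11.3% called higher in DMM. Rem2, a small GTPase that inhibits the channels, was at -1.97 on the log2 scale (adjusted p = 0.00479), Stac, an adaptor of L-type channels, at -1.46 (adjusted p = 0.0149), Stx1a, the release protein syntaxin 1A, at -1.13 (adjusted p = 0.0154) and Nedd4l, a ubiquitin ligase, at -1.43 (adjusted p = 0.0181). Of 14 calcium-dependent enzymes 7 were called lower and 0 higher, among them Prkca (-1.40, adjusted p = 0.0241), Camk2a (-1.32, adjusted p = 0.0319), Camk2d (-0.91, adjusted p = 0.0324) and the calcineurin subunit gene Ppp3cc (-0.74, adjusted p = 0.0121). Of 12 genes for stores and other entry routes 3 were called higher and 2 lower, the latter near the share of all genes. Stim1, the store sensor, rose by 0.62 (adjusted p = 0.00817) and Orai1, its pore, by 0.88 (adjusted p = 0.0253), while the leak channel gene Nalcn was at -1.14 (adjusted p = 0.0263) and the store release channel gene Itpr3 at -0.50 (adjusted p = 0.0382). Of 13 genes for removal and buffering 1 was called in each direction, no more than the share of all genes: Atp2a3, a calcium pump of the store, at 1.85 (adjusted p = 0.00851) and Atp2b4, a pump of the cell membrane, at -0.76 (adjusted p = 0.0397). In naive mice the 4 lists gave 1 higher and 0 lower, 0 and 1, 1 and 0, and 1 and 1, in this order (8.61% higher and 2.57% lower over all genes), and with vehicle DMM against naive gave 0 in all. Scaled to the pan-neuronal list, the DMM counts were 4, 5, 6 and 2 higher and 0 lower, but that scaling moved the median of all genes to 1.28, with 8159 of 22778 called higher and 70 lower. Without any 1 of AP20187 58, 59, 60 or 62 or vehicle 32, 33 or 34, the regulators called lower numbered 3 to 7, the enzymes 1 or 2, and the stores and entry genes 0 lower and 1 or 2 higher, where all genes gave 1346 to 1988 lower and 1866 to 2263 higher in place of 2828 and 2582. Without vehicle 64 the counts were 16 regulators, 10 enzymes and 8 genes of removal and buffering called lower, where 4173 of 22604 genes were. The latter numbered 5 without AP20187 61 (3630 of 22669 genes) or naive AP20187 3 (3259 of 23440), 3 without naive AP20187 5 (2845 of 23515), and 0 without AP20187 58, 59 or 60 or vehicle 32 (1346 to 1670 genes). Against DMM vehicle 63 and 64 alone, Stim1 was the only one of these genes called, at 0.81 (adjusted p = 0.0333).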

How the data were processed

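RNA of 19 samples (4 groups) was sequenced from stranded poly(A) libraries, per the labels. The authors deposited a table of 36682 genes with read counts per gene, not normalized, and FPKM values, normalized by the authors to length and library size. The submitters' processing notes name cutadapt, HISAT2, StringTie and the build GRCm39, without roles, and strand use in counting is not given in the sources used here. A deposited matrix of 56691 rows, 6448 of them without a gene name, served as a check of the totals only.

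The counts, 60984830 to 74691396 per library, were filtered (edgeR's filterByExpr, minimum count 10), scaled by TMM and fitted with edgeR 4.0.16 (R 4.3.3), quasi-likelihood test, in 1 model of 4 groups with 15 residual degrees of freedom. Benjamini-Hochberg adjustment ran over all 22778 genes, with a threshold of 0.05. Log2 CPM used a prior count of 2. Alternatives were DESeq2 1.42.0, limma 3.58.1 (voom with sample weights, and log2 FPKM with pseudocounts of 1 and 0.1), other scalings and filters, score covariates, subsets of mice and each library left out. Counts of 22010 genes were simulated for the DMM comparison, with 200 genes changed and each gene drawn independently. There, 30% of 2-fold and 86% of 4-fold changes were recovered. In the data 23.8% of genes were called, so these rates do not give the power of the real comparison.

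The members and gene lists were chosen with earlier results of these data known. Named genes are all members and, per list, up to 4 with the smallest p in DMM among those past the threshold; Cacna1s and Cacng3 were named after their values were seen. Likeness is Pearson's r of log2 CPM over 19 libraries, among genes whose mean reached 1 CPM in any group. Promoter windows came from RefSeq (GRCm38.p6) and were matched by symbol.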

Additional observations from a re-analysis of the deposited data

Results flagged for a closer look

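In 4 of 40 sets of values (10 genes in 4 groups), 1 mouse lay far from the rest of its group by Dixon's criterion, which chance meets in about 1 of 20 groups. DMM AP20187 58 was low for Cacna1b (log2 CPM 2.19, or 4.55 CPM), Cacna1h (2.73, or 6.62 CPM) and Cacnb4 (3.29, or 9.77 CPM). Naive AP20187 3 was low for Cacna1d (2.46, or 5.49 CPM). These mice had the lowest pan-neuronal scores of all 19 libraries, 6.35 and 6.93, and their part in these values was not tested.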

How the results depend on the processing

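The members called in DMM with AP20187, 0 in the report, were 5 with DESeq2, 8 with limma voom, 1 with library sizes alone (24.7% of all genes), 8 against vehicle 32, 33 and 34, 1 against vehicle 63 and 64, 1 scaled to the pan-neuronal list, and 0 to 8 with 1 library left out. In naive mice the count was 0 to 1 with 1 library left out (1 without vehicle 1, where 6.03% of all genes were called). With a replicate block over naive mice 1, 3, 4 and 5 it was 3 (Cacna1b -1.19, Cacna1c -0.92 and Cacna1h -1.01), where 11.5% of all genes were called (641 of 20425 lower). For the same mice without the block, a setting chosen after seeing the data, it was 0 (6.80%). The deviations of same-numbered mice had correlations of 0.00781, 0.254, -0.0532 and 0.223, not all above 0.1, and naive AP20187 1 and 4 correlated best with another number, so the mice were taken to share a number only. DMM against naive called 1 with vehicle (against 63 and 64) and 1 with AP20187 (limma voom).

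Several settings turned the sign of AP20187 effects and the cause was not tested. With the granulocyte precursor score, whose ranges do not overlap between treatments within DMM or within naive mice, as covariate, DMM values in the order Cacna1a, 1b, 1c, 1d, 1e, 1h, 2d1, 2d2, 2d3 and Cacnb4 were 1.504, 1.58, 1.501, 0.98, 0.42, 0.69, 1.54, 1.195, 0.95 and 1.41 (median 1.30). Naive values in that order without 1e were 1.27, 0.96, 0.98, 0.27, 0.38, 0.98, 0.81, 1.12 and 0.75 (median 0.88). With the pan-neuronal score, DMM values without 1e were 0.25, 0.46, 0.22, 0.49, 0.072, 0.52, 0.45, 0.28 and 0.37 (median 0.33), and naive 1a, 2d1 and 2d3 were 0.17, 0.055 and 0.40. Scaled to the pan-neuronal list, DMM 1a, 1c, 1d, 1e, 1h, 2d1, 2d2 and 2d3 were 0.19, 0.24, 1.57, 0.79, 0.30, 0.30, 0.26 and 0.070 (median 0.25), and naive 1a, 1d and 2d3 were 0.12, 0.53 and 0.25. Against vehicle 63 and 64, 1a, 1b, 1c, 1d, 2d1 and 2d2 were 0.12, 0.14, 0.23, 0.98, 0.17 and 0.049 (median 0.086). Cacna1d in DMM was 0.048 with log2(FPKM + 0.1), 0.0044 with only its groups, and -0.21 to 0.26 with 1 library left out, and Cacna1e in naive mice was 0.18 with limma voom. The median of DMM against naive with AP20187 was 0.16, 0.16 and 0.12 under the 2 covariates and the scaling, and that with vehicle was 0.079 against vehicle 32, 33 and 34. The interaction median was 0.54 and 0.48 with the covariates, 0.42 scaled, 1.05 against 63 and 64, 0.17 and 0.15 with FPKM plus 0.1 and plus 1, and -0.45 (naive AP20187 3) to 0.16 (naive AP20187 4) with 1 library left out.

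Over all genes, the 5410 calls in DMM became 10676 with limma voom, 8450 against vehicle 32, 33 and 34, 8229 scaled, 1156 against 63 and 64, 1323 and 521 with the pan-neuronal and granulocyte scores, and 3212 to 7677 with 1 library left out. The 2548 naive calls (1962 higher, 586 lower) became 4356 with DESeq2, 4542 with limma voom, 4225 and 4147 with FPKM plus 0.1 (1672 higher, 2553 lower) and plus 1 (1625 higher, 2522 lower), 1088 and 369 with the scores, 2416 scaled (2362 higher, 54 lower) and 994 to 3449 with 1 left out, and library sizes alone gave 1550 higher and 915 lower. The 160 calls of DMM against naive with AP20187 ranged from 12 to 2458, and the 26 of the interaction from 4 to 224. With vehicle, 0 became 541 against 63 and 64.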
